A study of Rattus norvegicus with 12 samples.

Results

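Podocytes are the epithelial cells that wrap the glomerular capillaries, and 10 rat genes of these cells and of their slit diaphragm were followed here: Nphs1, Synpo, Ptpro, Podxl, Rhpn1, Clic5, Plce1, Thsd7a, Cd2ap and Actn4. They were taken as the probe sets whose only gene symbol in the platform annotation is one of these names, which gave 16 of the 31042 probe sets measured besides controls. Of the 16, 15 passed the filter on low signal, which kept a probe set above the 40th percentile of its array on at least 2 arrays, and each of the 10 genes had at least 1 that passed. Nphs1 and Rhpn1 passed it on the 7 E18 and Wk4 arrays only, and Clic5 on 4 of these, so that these genes were kept through the groups in which they were high. A gene with several probe sets is counted by the one with the highest mean signal, and the others are described beside it.

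Total RNA was measured on 12 Affymetrix arrays of whole rat kidney at 3 ages, namely day 13 of gestation (E13, n = 3), day 18 of gestation (E18, n = 4) and week 4 of postnatal life (Wk4, n = 3), and of a tissue grown in culture (n = 2). That tissue, called recombined tissue here, was made by joining unbranched ureteric buds formed in vitro with metanephric mesenchyme, and was kept in culture for 6 days. The design asked whether it follows the normal course of kidney development, and took a difference of at least 3-fold as its measure. The sources used here give neither the strain nor the number of animals or cultures behind an array. Replicates may therefore be technical, and a p-value covers no more than the spread among them. No treatment or genotype is named for any group.

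In the kidney the podocytes send out foot processes that interlock around the capillary, and the gap between neighbouring processes is bridged by the slit diaphragm, a junction of nephrin and its partners. Adaptor proteins tie this junction to the actin of the foot process, and a negatively charged surface coat on the upper membrane keeps the processes apart. Podocytes arise from the proximal end of the early nephron, stop dividing as they mature, and build the glomerular basement membrane together with the endothelium.

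The promoters of 3 genes that rose together between the embryonic stages are shown first, since they differ in base composition. RefSeq's table for the GRCr8 build had an entry for 7 of the 10 genes, each covering 250 bases before and 50 after the annotated start. The sequences are written 5′ to 3′ along the gene's strand, and capitals mark the only motif found in them.
Nphs1 (chr1:94848011-94848310, plus strand): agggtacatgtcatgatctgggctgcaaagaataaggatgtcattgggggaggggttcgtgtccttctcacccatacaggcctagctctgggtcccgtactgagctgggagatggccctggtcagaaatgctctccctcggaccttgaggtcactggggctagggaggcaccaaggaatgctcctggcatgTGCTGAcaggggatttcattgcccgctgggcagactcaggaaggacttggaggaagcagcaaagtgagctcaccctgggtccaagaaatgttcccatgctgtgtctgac
Ptpro (chr4:171895261-171895560, plus strand): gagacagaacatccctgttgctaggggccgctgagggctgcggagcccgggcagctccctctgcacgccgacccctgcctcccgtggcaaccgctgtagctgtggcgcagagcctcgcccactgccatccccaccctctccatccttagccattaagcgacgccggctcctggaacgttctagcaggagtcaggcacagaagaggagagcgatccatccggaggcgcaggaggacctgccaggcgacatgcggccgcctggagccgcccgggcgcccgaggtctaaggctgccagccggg
Podxl (chr4:61149082-61149381, minus strand): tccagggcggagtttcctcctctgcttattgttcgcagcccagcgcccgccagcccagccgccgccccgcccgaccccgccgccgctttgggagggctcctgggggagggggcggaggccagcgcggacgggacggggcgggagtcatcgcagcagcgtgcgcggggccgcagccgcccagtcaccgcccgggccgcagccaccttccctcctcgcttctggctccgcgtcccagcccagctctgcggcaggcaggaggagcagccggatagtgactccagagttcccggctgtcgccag

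The Nphs1 window held 4 CpG dinucleotides and 56.3% G or C, against 24 and 68.7% for Ptpro and 33 and 74.7% for Podxl; the medians over all promoters of the table were 7 and 51.7%. Of all promoters, 64.1% had a lower share of G or C than that of Nphs1, and 96.8% a lower share than that of Podxl. Searched on both strands were TAATTA (a homeodomain core), TAAACA (a forkhead core), GCGTGGG (a core shared by WT1 and EGR zinc fingers), TATAAA (the TATA box) and the letters TGCTGA. Among the 7 windows only TGCTGA was found, once in Nphs1, 59 bases before the start, and once in Clic5, 95 bases before it. This motif occurs in 18.4% of all 33469 promoters, TAATTA in 5.4%, TAAACA in 13.7%, GCGTGGG in 4.3% and TATAAA in 14.2%. A match is a description of these letters, not a site shown to be bound.

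The arrays had been scaled by the authors to nearly the same mean, with median signals between 799 and 1020. The E13 and E18 arrays were divided into 2 sets by their deviations from the stage means: set 1 held E13 replicate 1 with E18 replicates 1 to 3, and set 2 held E13 replicates 2 and 3 with E18 replicate 4. The axis used held 47.7% of the variance of these deviations. Deviations balance within a stage, so each stage had to be split, and the split alone is no evidence of a batch. Fits that use the sets rest on the arrays from which the sets were drawn. The labels name no batch, and whether the sets come from a batch or from mixed or exchanged samples was not tested, which bears on every E13 and E18 value and most on Actn4. The arrays of recombined tissue also lay apart, with Pax8, a kidney epithelial transcription factor, at 1503 on replicate 1 and 4876 on replicate 2, and Pax2 at 1033 and 4291. For the podocyte genes followed here, results that turn on these arrays are given with and without them. The other podocyte genes and the markers of other cells were not refitted with an array left out. In whole tissue a lower share of podocytes and less RNA per podocyte cannot be told apart.

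By the limma test 7 of the 10 rose from E13 to E18 at an adjusted p under 0.05 (Nphs1, Ptpro, Podxl, Rhpn1, Clic5, Thsd7a and Cd2ap), where 12.7% of all 22599 probe sets rose and 7.03% fell. A rise of at least 3-fold was reached by Nphs1, Ptpro and Rhpn1, 3 of 10, against 1.93% of all probe sets, and a fall of that size by 0 of 10, against 0.407%. Nphs1, Rhpn1 and Clic5 passed the filter only on E18 and Wk4 arrays, and the genes were chosen with earlier results known. The counts here and below therefore describe the genes and are no test of the list. The median difference of the 10 genes was 1.17 on the log2(signal + 271) scale, on which every difference below is given with its SE, against -0.015 over all probe sets. This scale draws in the differences of dim genes, so those of Nphs1, Rhpn1 and Clic5 are smaller than on log2(signal). Which scale is nearer the true change is unknown, as no detection limit was available. Markers of the rest of the nephron and collecting duct (Pax8, Lhx1, Wnt4, Cdh6, Slc12a1, Umod, Lrp2, Slc34a1 and Aqp2) rose over the same step in 8 of 9 cases, 6 of them by at least 3-fold, with a median of 2.56. Their summed signal ran from 6634 to 9070 at E13 and from 60275 to 83039 at E18, and the part of epithelial growth as a whole in the podocyte gene values was not tested.

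From E18 to Wk4 the genes went different ways. Synpo, Rhpn1 and Clic5 rose, 3 of 10 where 22.2% of all probe sets did, and Plce1 and Thsd7a fell, 2 of 10 where 32.6% did, so the share that changed lay near that of the whole array. Thsd7a fell by at least 3-fold, 1 of 10, against 5.43% of all probe sets, and 0 of 10 rose by as much, against 5.76%. The median of the 10 was 0.04, against -0.12 over all probe sets. Counting only the set 2 embryonic array of E18, with its spread taken from the other groups, 3 genes rose by 3-fold in place of 0.

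**Figure D1:**
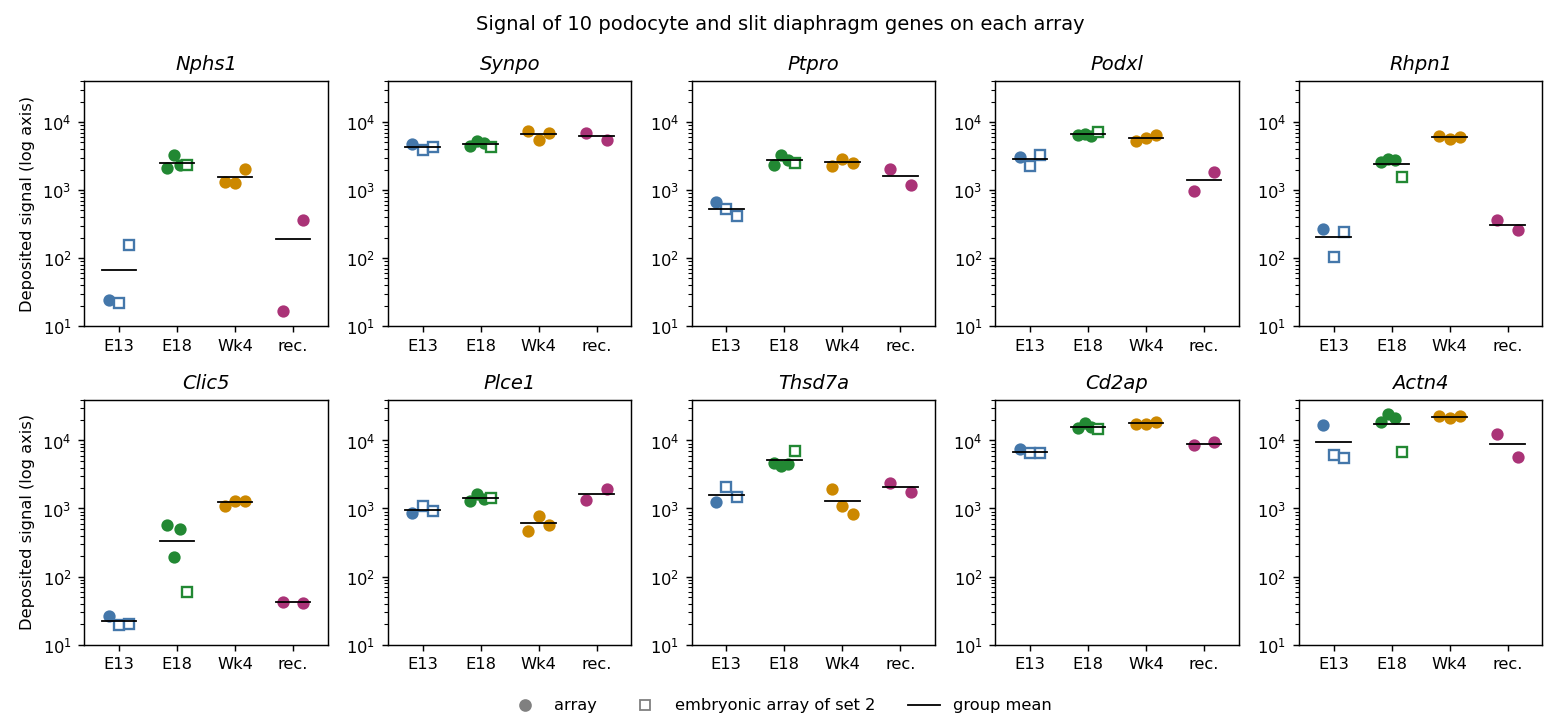
Deposited signal (log axis) of the counted probe set of each gene on every array of E13, E18, Wk4 and recombined tissue (rec.); open squares are the embryonic arrays of set 2 and lines are group means. Nphs1, Rhpn1 and Clic5 lie low at E13 and in recombined tissue, Synpo stays between 3858 and 7373 on all arrays, and Actn4 splits within E13 and within E18 by set.

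Nphs1 encodes nephrin, the adhesion protein whose extracellular parts span the slit. Its signal was 23.9, 21.8 and 153 on the E13 arrays, 2082, 3285, 2294 and 2361 on the E18 arrays, 1307, 1284 and 2027 at Wk4, and 16.4 and 360 in recombined tissue. All E18 and Wk4 arrays lay above all E13 and recombined arrays, and the Wk4 arrays lay below those of E18. The step from E13 to E18 was 3.05 ± 0.27 (limma adjusted p = 1.63e-06). Wk4 was lower than E18 by a difference of -0.62 ± 0.27, which missed the threshold (adjusted p = 0.0621). Under 17 of 20 alternatives it missed the threshold as well. It passed with 4 times the pseudocount (-0.45, adjusted p = 0.0132), with only the arrays compared (adjusted p = 0.0137) or without Wk4 replicate 3 (-0.81, adjusted p = 0.0384).

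Recombined tissue held 188 ± 243 for Nphs1 (SD, n = 2), as against 66.4 ± 75.4 at E13 (SD, n = 3) and 2506 ± 533 at E18 (SD, n = 4). It was lower than E18 by a difference of -2.69 ± 0.30 (limma adjusted p = 1.57e-05) and lower than Wk4 by -2.06 ± 0.32 (adjusted p = 7.72e-05). Its difference from E13 was 0.36 ± 0.32 with a 95% interval from -0.33 to 1.04 (adjusted p = 0.439). The sign of this last value rested on 1 array, as it was 0.93 without recombined replicate 1 (adjusted p = 0.0532) and -0.21 without replicate 2 (adjusted p = 0.697). A second Nphs1 probe set was dimmer, at 260, 650, 71.7 and 457 at E18 and between 13.6 and 42.7 at E13, and missed the threshold for that step (0.97 ± 0.33, adjusted p = 0.0528). On it Wk4 and E18 differed by 0.13 ± 0.33 (adjusted p = 0.754), the opposite sign to the counted probe set. Recombined tissue and E18 differed on it by -0.90 ± 0.37 (adjusted p = 0.0881).

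Cd2ap, an adaptor that links the slit diaphragm to actin and to phosphoinositide signalling, changed with the least spread. It stood at 7440, 6482 and 6588 at E13, at 15045, 18000, 15868 and 14648 at E18, at 17354, 17608 and 18908 at Wk4, and at 8523 and 9419 in recombined tissue. Each array of recombined tissue lay above every E13 array and below every E18 and Wk4 array. Cd2ap rose by 1.18 ± 0.10 from E13 to E18 (limma adjusted p = 1.25e-06), while Wk4 and E18 differed by 0.18 ± 0.10 (adjusted p = 0.156, 95% interval -0.04 to 0.39). It was lower in recombined tissue than at E18 (-0.80 ± 0.12, adjusted p = 0.000125) and higher than at E13 (0.38 ± 0.12, adjusted p = 0.0277). Centring each array on its median shifted recombined minus E13 by -0.19 for every gene, after which the latter was 0.19 (adjusted p = 0.272). It was also lost without E13 replicate 2 (adjusted p = 0.0793), E13 replicate 3 (0.0716) or recombined replicate 2 (0.139).

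Plce1 encodes phospholipase C epsilon, a signalling enzyme whose loss causes childhood nephrotic syndrome in humans. Its signal was 862, 1076 and 912 at E13 and 1270, 1638, 1367 and 1417 at E18, then 469, 766 and 580 at Wk4, with 1332 and 1907 in recombined tissue. The Wk4 arrays were the lowest and did not overlap with any other group. Plce1 fell from E18 to Wk4 by a difference of -0.96 ± 0.17 (limma adjusted p = 0.000265) and was higher in recombined tissue than at Wk4 (1.11 ± 0.21, adjusted p = 0.000395). E18 and E13 differed by 0.47 ± 0.17 (adjusted p = 0.0726), and recombined tissue and E18 by 0.15 ± 0.20 with a 95% interval from -0.27 to 0.57 (adjusted p = 0.631). The higher value in recombined tissue than at E13 (0.62 ± 0.21, adjusted p = 0.0347) missed the threshold under 10 of 18 alternatives, with adjusted p = 0.122 after median centring, 0.0795 without E13 replicate 1, 0.0796 without E13 replicate 3 and 0.267 without recombined replicate 2.

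**Figure D2:**
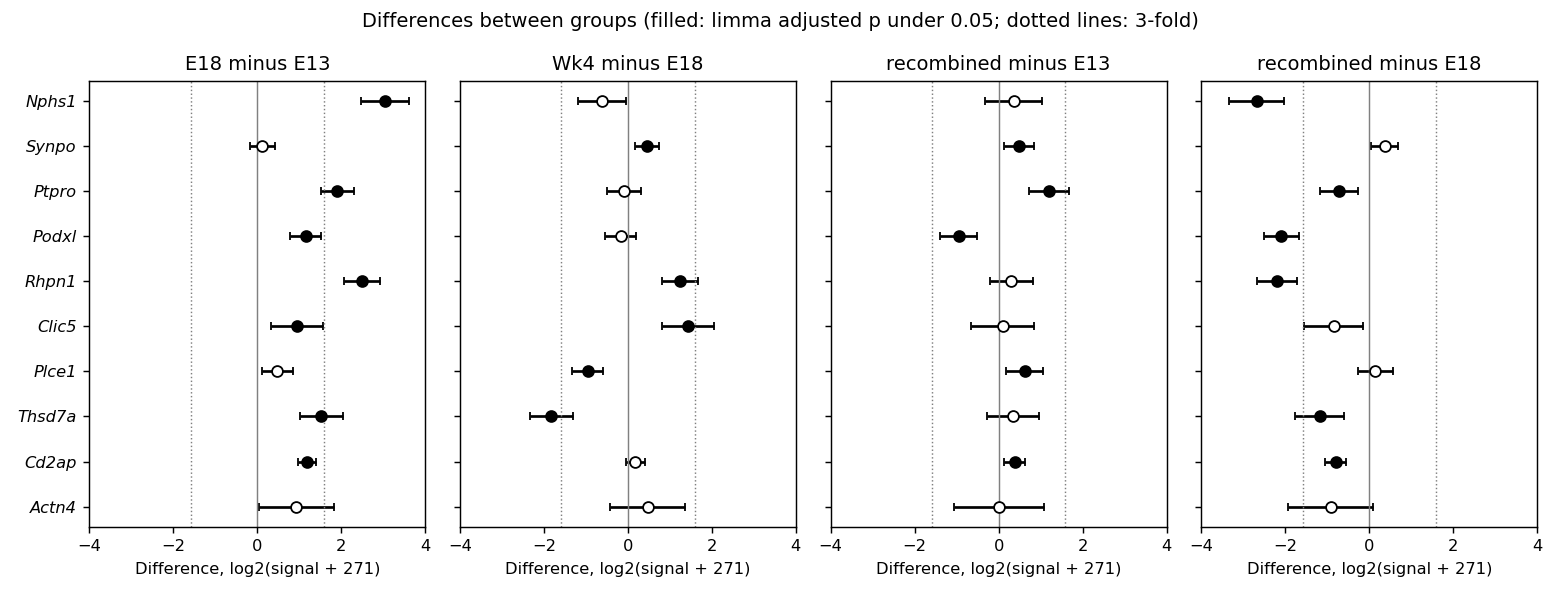
Difference of each gene between groups on the log2(signal + 271) scale with its 95% interval, for E18 minus E13, Wk4 minus E18, recombined minus E13 and recombined minus E18; filled points passed limma's adjusted p and dotted lines mark 3-fold. All 10 points lie above 0 for E18 minus E13, and those of Nphs1, Podxl and Rhpn1 lie beyond 3-fold below E18 in recombined tissue.

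The apical membrane was represented by Podxl, Ptpro and Clic5. Podxl encodes podocalyxin, the sialomucin that carries most of the negative charge of the podocyte surface and is also made by vascular endothelium. Its counted probe set read 3056, 2255 and 3299 at E13, 6417, 6565, 6319 and 7238 at E18, 5242, 5843 and 6512 at Wk4, and 971 and 1810 in recombined tissue. The recombined arrays lay below every kidney array, and the E18 and Wk4 arrays overlapped.

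Podxl rose from E13 to E18 by 1.15 ± 0.17 (limma adjusted p = 0.00024) and differed by -0.17 ± 0.17 between Wk4 and E18 (adjusted p = 0.417, 95% interval -0.54 to 0.20). Recombined tissue was lower than E18 (-2.10 ± 0.20, adjusted p = 2.69e-06), than Wk4 (-1.93 ± 0.21, adjusted p = 2.01e-06) and than E13 (-0.95 ± 0.21, adjusted p = 0.00281). The difference from E13 missed the threshold without recombined replicate 1 (-0.58, adjusted p = 0.0531) and when the probe sets were averaged (-0.41, adjusted p = 0.105). Both other Podxl probe sets were dim, one between 475 and 1078 and the other between 169 and 460, and the dimmest failed the filter. On the brighter of them recombined tissue and E18 differed by -0.15 ± 0.21 (adjusted p = 0.657), and recombined tissue and E13 by 0.13 ± 0.22 (adjusted p = 0.716), so the lower level in culture passed the test on the bright probe set only, of the 2 tested.

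Endothelial markers were low where Podxl was low in culture. The summed signal of 10 of them (Pecam1, Kdr, Flt1, Tek, Tie1, Emcn, Esam, Plvap, Ehd3 and Egfl7) ran from 32083 to 43810 at E13, from 43092 to 54631 at E18, from 70115 to 77958 at Wk4 and from 7343 to 14837 in recombined tissue. By the limma test recombined tissue had all 10 below E18, where 15.5% of all probe sets were, and 8 below E13, where 15.2% were. None was above E18, where 12.7% of all probe sets were, or above E13, where 15.9% were. Tek, the angiopoietin receptor, differed from E18 by -2.82, and Plvap, a protein of endothelial fenestrae, by -3.23. Between E13 and E18, 3 of the 10 rose, where 12.7% of all probe sets did. From E18 to Wk4, 4 rose and 1 fell, where 22.2% and 32.6% of all probe sets did, while Podxl had no called change. The part of endothelium in the Podxl result was not tested.

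Ptpro encodes a receptor tyrosine phosphatase of the podocyte's apical membrane. It read 666, 518 and 414 at E13, 2327, 3322, 2775 and 2528 at E18, 2280, 2876 and 2485 at Wk4, and 2020 and 1169 in recombined tissue. Both recombined arrays lay above all E13 arrays and below all E18 arrays, by differences of 1.19 ± 0.22 (limma adjusted p = 0.00098) and -0.72 ± 0.21 (adjusted p = 0.02). The step from E13 to E18 was 1.91 ± 0.19 (adjusted p = 4.47e-06), and Wk4 and E18 differed by -0.09 ± 0.19 (adjusted p = 0.709). Without recombined replicate 2 the difference from E18 was -0.38 (adjusted p = 0.272), and without E18 replicate 2 it was -0.63 (adjusted p = 0.0507). Against Wk4 it was -0.63 ± 0.22 (adjusted p = 0.0278), and missed the threshold without Wk4 replicate 2 (0.0874), Wk4 replicate 3 (0.0526) or recombined replicate 2 (-0.29, adjusted p = 0.345). A shorter form of Ptpro is known in macrophages and B cells. The summed signal of 9 leukocyte markers ran from 103850 to 200540 in recombined tissue, from 5393 to 7419 at E13, from 15489 to 20559 at E18 and from 37527 to 41257 at Wk4. Between E18 and Wk4 the mean of 1 of them, Lyz2, went from 7254 to 27897. Over that step 2 of the 9 rose, where 22.2% of all probe sets did, and none fell, where 32.6% did. The part of leukocytes in the Ptpro level was not tested.

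Clic5 encodes a chloride intracellular channel family protein that binds ezrin next to podocalyxin. It stood at 26.1, 19.4 and 20.3 at E13, at 566, 196, 498 and 59.2 at E18, at 1105, 1299 and 1297 at Wk4, and at 42.8 and 40.5 in recombined tissue. The E18 arrays spread widely, with replicate 4, the array of set 2, lowest, the Wk4 arrays lay above all others, and the recombined arrays lay between E13 and E18. These low signals stood at percentiles 6 and 3.2 of the recombined arrays and 3.7, 1.7 and 2 of the E13 arrays. Recombined tissue and E13 differed by 0.09 ± 0.35 (limma adjusted p = 0.872). From E18 to Wk4 Clic5 rose by 1.42 ± 0.29 (limma adjusted p = 0.000748), and recombined tissue was lower than Wk4 by -2.26 ± 0.35 (adjusted p = 6.81e-05). The rise from E13 to E18 (0.94 ± 0.29, adjusted p = 0.0344) missed the threshold under 11 of 19 alternatives. Among them was the set as a covariate (0.71, adjusted p = 0.117). The rise was 1.17 within set 1, with 1 E13 array, and 0.18 within set 2, with 1 E18 array. It was also lost without E13 replicate 1 (0.0594), 2 (0.0934) or 3 (0.094), and without E18 replicate 1 (0.75, adjusted p = 0.107) or 3 (0.79, adjusted p = 0.107). Recombined tissue and E18 differed by -0.84 ± 0.33 (adjusted p = 0.0709), or by -1.10 without E18 replicate 4 (adjusted p = 0.0102).

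Of the genes of the actin side, Rhpn1 had the widest range. It encodes rhophilin 1, a protein whose loss in mice effaces the foot processes. Its counted probe set read 263, 105 and 238 at E13, 2558, 2885, 2737 and 1560 at E18, 6309, 5695 and 6062 at Wk4, and 358 and 257 in recombined tissue. On this probe set the groups E13, E18 and Wk4 followed each other without overlap, and recombined tissue overlapped with E13. Rhpn1 rose by 2.50 ± 0.20 from E13 to E18 (limma adjusted p = 6.11e-07) and by a further 1.25 ± 0.20 to Wk4 (adjusted p = 8.88e-05). Recombined tissue was lower than E18 (-2.20 ± 0.23, adjusted p = 6.54e-06) and differed from E13 by 0.30 ± 0.24 (adjusted p = 0.376, 95% interval -0.21 to 0.81). The dimmer probe set was also lower in recombined tissue than at E18 (-1.17 ± 0.35, adjusted p = 0.0236), at 44.8 and 40.8 against 484, 173, 787 and 425. Its rise from E13 to E18 was 0.95 ± 0.31 (adjusted p = 0.0462). Wk4 and E18 differed on it by 0.61 ± 0.31, which missed the threshold (adjusted p = 0.116). Its E18 arrays overlapped with those of E13 and of Wk4.

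Synpo encodes synaptopodin, an actin-bundling protein of the foot processes that is also found in neurons. Its counted probe set read 4726, 3858 and 4352 at E13, 4364, 5288, 4873 and 4329 at E18, 7373, 5507 and 6845 at Wk4, and 6864 and 5459 in recombined tissue. On this probe set E13 and E18 overlapped, as did Wk4 and recombined tissue, and the later pair lay above the earlier. Synpo differed by 0.12 ± 0.13 between E18 and E13 (limma adjusted p = 0.593, 95% interval -0.17 to 0.41) and rose by 0.45 ± 0.13 from E18 to Wk4 (adjusted p = 0.0106), but by 0.37 without Wk4 replicate 1 (adjusted p = 0.0606). The other probe sets also rose to Wk4, the dimmest by 0.91 ± 0.23 (adjusted p = 0.00324) and the other by 0.63 ± 0.21 (adjusted p = 0.0221). Between E18 and E13 they differed, in this order, by -0.37 ± 0.23 (adjusted p = 0.291) and -0.10 ± 0.21 (adjusted p = 0.795). On both of them recombined tissue overlapped with E13 and with E18. On the dimmest, recombined tissue lay below Wk4 without overlap (-0.71 ± 0.27, adjusted p = 0.0379), and on the other it overlapped with Wk4 (-0.37 ± 0.26, adjusted p = 0.244). For Wk4 against E13 both missed the threshold, at 0.54 ± 0.24 (adjusted p = 0.0659) and 0.53 ± 0.23 (adjusted p = 0.06).

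In recombined tissue Synpo was higher than at E13 by 0.48 ± 0.16 (limma adjusted p = 0.0337), a value that fell to 0.29 after median centring (adjusted p = 0.198) and to 0.33 without recombined replicate 1 (adjusted p = 0.244). It also missed the threshold without E13 replicate 2 (adjusted p = 0.106) or E13 replicate 3 (adjusted p = 0.066). On these probe sets, in the same order, recombined tissue and E13 differed by -0.17 ± 0.27 (adjusted p = 0.68) and 0.16 ± 0.26 (adjusted p = 0.69), so the signs were not all the same. The summed signal of 6 neural and Schwann cell markers was 10285 to 25865 in recombined tissue, 6240 to 7739 at E13 and 1549 to 2059 at Wk4, and its part in the Synpo level was not tested.

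Actn4 encodes alpha-actinin-4, which crosslinks actin in podocytes and in many other cells. Its signal was 16741, 6091 and 5515 at E13, 18772, 24186, 21057 and 6881 at E18, 22620, 21421 and 23028 at Wk4, and 12354 and 5659 in recombined tissue. Within each embryonic stage the arrays split by set: E13 replicate 1 stood near the high E18 arrays, and E18 replicate 4 near the low E13 arrays. The pooled difference between E18 and E13 was 0.93 ± 0.42 (limma adjusted p = 0.14), 1.43 without E13 replicate 1 (adjusted p = 0.0164) and 1.33 without E18 replicate 4 (adjusted p = 0.0114). Within set 1, with 1 E13 array, it was 0.34, and within set 2, with 1 E18 array, it was 0.24. With the set as a covariate it was 0.29 ± 0.20 (adjusted p = 0.377). The sets were drawn from these same arrays, so this SE may be too small. Wk4 was higher than E13 by 1.40 ± 0.45 (adjusted p = 0.0136), but by 0.41 against the set 1 array alone and by 1.90 against the set 2 arrays. Without E13 replicate 2 it was 1.19 (adjusted p = 0.0581) and without E13 replicate 3 it was 1.12 (adjusted p = 0.0671).

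Thsd7a, which encodes a transmembrane protein of the podocyte foot process and is an autoantigen of human membranous nephropathy, was highest at E18. It read 1253, 2038 and 1478 at E13, 4702, 4176, 4582 and 6980 at E18, 1952, 1078 and 833 at Wk4, and 2400 and 1768 in recombined tissue. Every E18 array lay above every other array, and the remaining groups overlapped. Thsd7a rose by 1.53 ± 0.24 to E18 (limma adjusted p = 0.00036) and then fell by a difference of -1.83 ± 0.24 (adjusted p = 1.41e-05), which left Wk4 and E13 at a difference of -0.30 ± 0.26 (adjusted p = 0.335). Recombined tissue was lower than E18 by -1.18 ± 0.27 (adjusted p = 0.00481), or by -0.98 without recombined replicate 2 (adjusted p = 0.0604). Its difference from Wk4, 0.65 ± 0.29, missed the threshold (adjusted p = 0.0721) but was 0.94 without Wk4 replicate 1 (adjusted p = 0.00953).

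**Figure D3:**
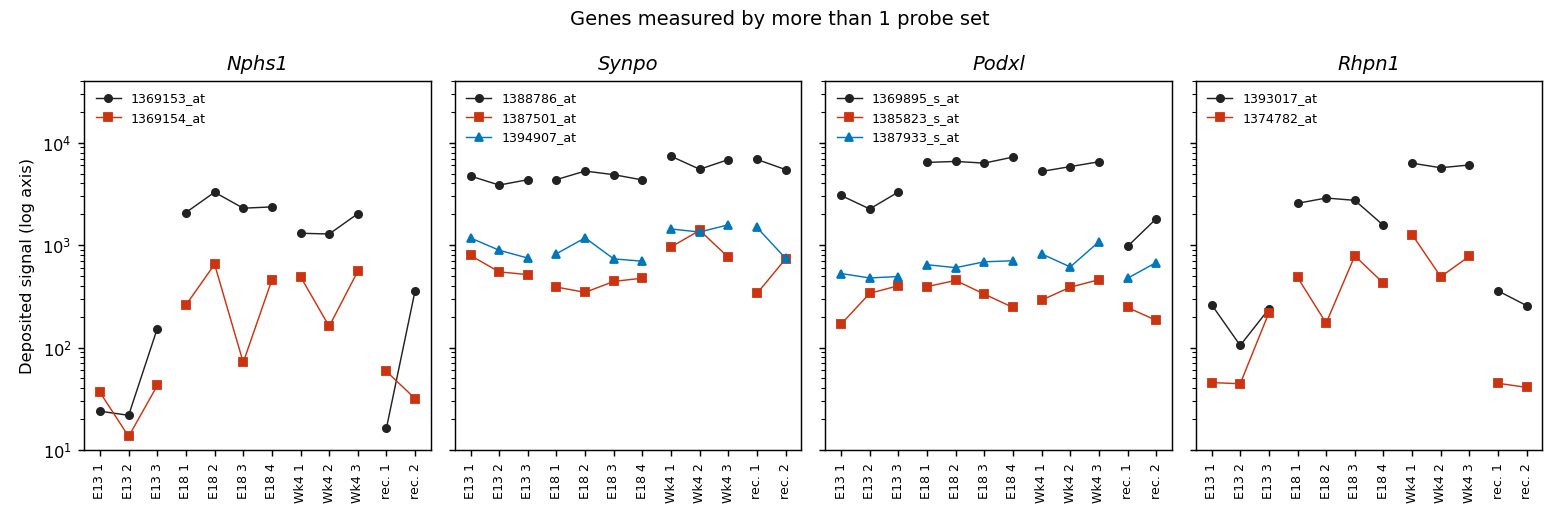
Deposited signal (log axis) on each of the 12 arrays for the 4 genes with more than 1 probe set, the counted one in black; lines join arrays of a group. The dim Podxl probe sets stay between 169 and 1078 while the bright one falls to 971 and 1810 in recombined tissue.

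Set against E18, recombined tissue had 6 of the 10 genes lower (Nphs1, Ptpro, Podxl, Rhpn1, Thsd7a and Cd2ap), where 15.5% of all probe sets were lower, and none higher by the limma test, where 12.7% were. Of these, Nphs1, Podxl and Rhpn1 were lower by at least 3-fold, 3 of 10 against 1.67% of all probe sets, and none was higher by as much, against 2.73%. The median difference was -0.88, against -0.001 over all probe sets. The 9 nephron and collecting duct markers had 6 lower, each by at least 3-fold, and none higher by the test, with a median of -2.17. Their summed signal was 14036 to 26652 in recombined tissue, so lower values were not particular to the podocyte genes. Among the 9, Wnt4 had the opposite sign without passing the test, at 9779 and 14381 against 5493 to 7691 at E18. Set against E13, 4 genes were higher (Synpo, Ptpro, Plce1 and Cd2ap), where 15.9% of all probe sets were, and Podxl was lower, where 15.2% were. By the 3-fold rule 0 of 10 were higher than at E13, against 3.95% of all probe sets, and 0 of 10 lower, against 0.912%. The embryonic comparison and these share their E13 and E18 arrays, so they are not independent of each other.

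Against Wk4, recombined tissue was lower in 7 of 10 genes (Nphs1, Ptpro, Podxl, Rhpn1, Clic5, Cd2ap and Actn4), where 20.9% of all probe sets were, and higher in Plce1, where 32.0% were. Nphs1, Podxl, Rhpn1 and Clic5 passed 3-fold, 4 of 10 against 7.32% of all probe sets, and none was higher by as much, against 7.88%. The Actn4 difference (-1.39 ± 0.50, limma adjusted p = 0.0299) was lost without Wk4 replicate 1 (0.0619), 2 (0.0574) or 3 (0.0658), or without recombined replicate 2 (-0.84, adjusted p = 0.289). The widest of these differences was that of Rhpn1, at -3.45 ± 0.24 (adjusted p = 2.07e-08). Over the whole course from E13 to Wk4, 8 of 10 genes rose, where 26.2% of all probe sets did, and Plce1 fell (-0.49 ± 0.19, adjusted p = 0.0333), where 34.4% did. The fall of Plce1 was lost without E13 replicate 2 (adjusted p = 0.112) or 3 (0.0569), or without Wk4 replicate 1 (0.128) or 3 (0.0733). A rise of at least 3-fold was reached by 4 of 10 (Nphs1, Ptpro, Rhpn1 and Clic5), against 9.39% of all probe sets, and a fall of that size by 0 of 10, against 8.46%.

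Other podocyte genes were grouped by role, and 51 of them were tested. From E13 to E18, 31 rose and 2 fell by the limma test, with a median of 0.67, where 12.7% of all probe sets rose and 7.03% fell. From E18 to Wk4, 12 rose and 26 fell, with a median of -0.49, where 22.2% rose and 32.6% fell. In recombined tissue against E18, 6 were higher and 24 lower, with a median of -0.43, where 12.7% were higher and 15.5% lower. The medians over all probe sets were -0.015, -0.12 and -0.001 in the same order. With the set of embryonic arrays as a covariate, 29 rose and 3 fell from E13 to E18, and 13 rose and 29 fell from E18 to Wk4. In recombined tissue 7 were then higher and 25 lower than at E18.

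Of 6 transcription factors of podocytes tested, 5 fell from E18 to Wk4, where 32.6% of all probe sets fell, and none rose, where 22.2% did. Wt1, which is needed for both the nephron progenitor and the podocyte, went from 18225 ± 2200 at E18 (SD, n = 4) to 2385 ± 80.0 at Wk4 (SD, n = 3), lower by -2.79 ± 0.15 (limma adjusted p = 1.56e-09). Hey1, a Notch target, fell by -2.96 ± 0.23 (adjusted p = 7.15e-08) and Tcf21, needed for glomerular maturation, by -2.22 ± 0.18 (adjusted p = 1.26e-07). In recombined tissue all 6 lay below E18, where 15.5% of all probe sets did, from -0.51 for Wt1 (adjusted p = 0.0415) to -1.47 for Tcf21 (adjusted p = 0.00012).

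The list of 12 other slit diaphragm and junction genes had 4 that rose between the embryonic stages, where 12.7% of all probe sets did. From E18 to Wk4, 9 fell and 1 rose, where 32.6% and 22.2% did. Crb2, a polarity protein, fell to Wk4 by -1.85 ± 0.43 (limma adjusted p = 0.0021), and Tjp1, the tight junction scaffold ZO-1, by -1.06 ± 0.12 (adjusted p = 2.96e-06). In recombined tissue 5 were lower than at E18, where 15.5% of all probe sets were, and 1 was higher, where 12.7% were. The latter was Trpc6, a calcium channel of the slit diaphragm that smooth muscle also has. Trpc6 read 6217 and 3188 in recombined tissue and between 27.7 and 457 on all kidney arrays, a difference from E18 of 3.10 ± 0.29 (adjusted p = 3.1e-06).

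Of 9 basement membrane genes, 7 were higher at E18 than at E13, where 12.7% of all probe sets were, and none was lower, where 7.03% were. Col4a4, a chain of the mature glomerular collagen network, stood at 171 ± 33.4 at E13 (SD, n = 3) and 231 ± 112 at E18 (SD, n = 4) and reached 1235 ± 247 at Wk4 (SD, n = 3), a rise of 1.60 ± 0.24 (limma adjusted p = 4.31e-05). Over the same step Lamb1, the laminin chain of the immature membrane, fell by -1.40 ± 0.12 (adjusted p = 2.46e-07), and Lamb2, which takes its place, differed by 0.26 ± 0.15 (adjusted p = 0.16). The proteoglycan gene Agrn fell by -1.50 ± 0.17 (adjusted p = 3.91e-06). Recombined tissue differed from E18 in Lamb2, which was higher (adjusted p = 0.000543), and Agrn, which was lower (-0.75 ± 0.20, adjusted p = 0.0109), 1 of 9 each way, where 12.7% of all probe sets were higher and 15.5% lower.

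Of 15 actin and adhesion genes, 11 were higher at E18 than at E13, where 12.7% of all probe sets were, and none was lower, where 7.03% were. Arhgap24, a Rac-inactivating protein, stood at 1738 ± 234 at E13 (SD, n = 3) and reached 15855 ± 1619 (SD, n = 4), rising by 3.01 ± 0.11 (limma adjusted p = 3.08e-10), and Ezr, which links podocalyxin to actin and is abundant in tubule brush borders too, rose by 2.91 ± 0.12 (adjusted p = 7.22e-10). Against E18, recombined tissue had 6 of the 15 lower and 3 higher, where 15.5% and 12.7% of all probe sets were, with Arhgap24 at -1.50 ± 0.13 (adjusted p = 1.17e-06). The remaining list of 9 surface, secreted and cycle-exit genes had 6 lower and 1 higher, beside the same 15.5% and 12.7%. Dpp4, a peptidase shared with the proximal tubule, was lower by -2.97 ± 0.21 (adjusted p = 2.4e-07), the cyclin-dependent kinase inhibitor Cdkn1c by -1.93 ± 0.18 (adjusted p = 2.39e-06), and the heparan sulfatase gene Sulf1 was higher by 3.09 ± 0.27 (adjusted p = 1.33e-06). Vegfa, the endothelial growth factor that podocytes secrete, differed by 0.11 ± 0.27 (adjusted p = 0.809).

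**Figure D4:**
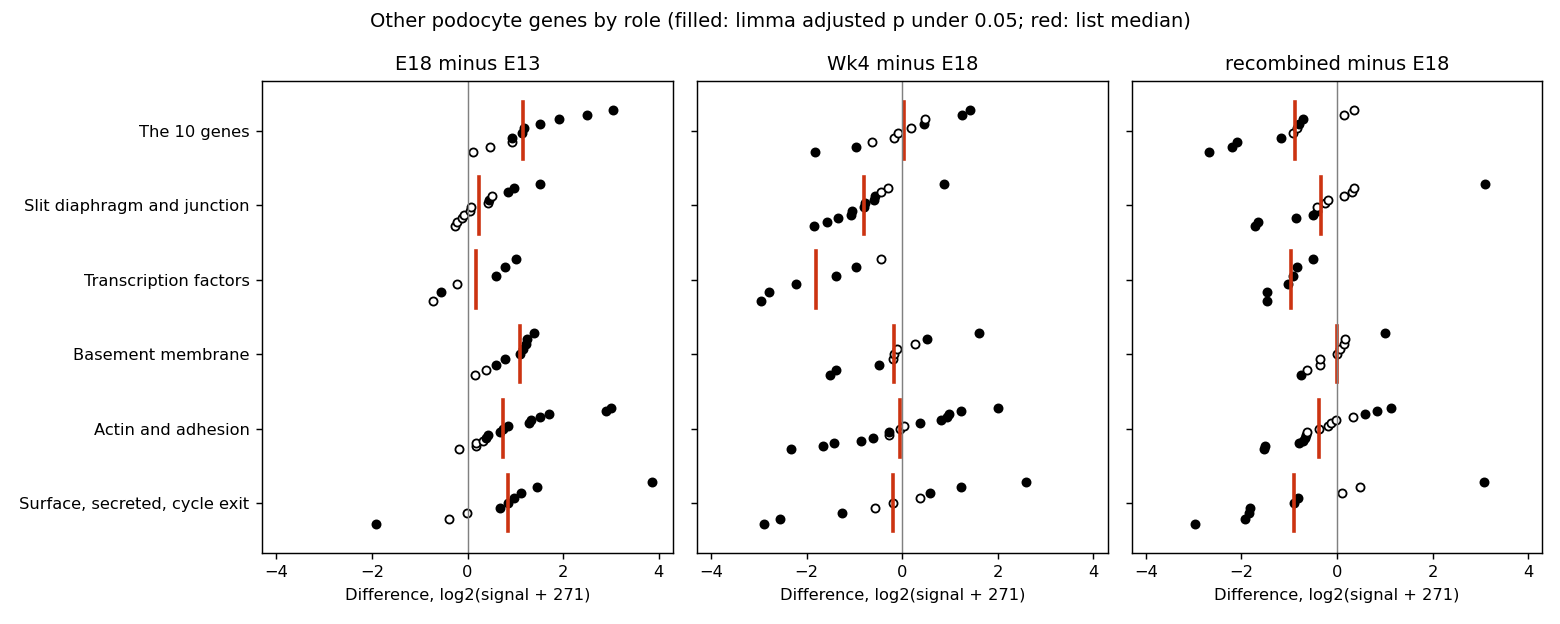
Differences on the log2(signal + 271) scale for the 10 genes and for the other podocyte genes by role, in E18 minus E13, Wk4 minus E18 and recombined minus E18; each point is a gene, filled where limma's adjusted p was under 0.05, and red bars are medians. The transcription factors lie furthest to the left in Wk4 minus E18, with a median of -1.80.

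The genes outside the list with the patterns nearest to 3 of its members were found by the root-mean-square difference of log2(signal + 271) over the 12 arrays, after each probe set was centred on the mean of its 4 group means, among 11919 other genes. Nearest to Nphs1 were Cdh1, the epithelial cadherin (0.43), Pou3f3 (0.45) and Septin4 (0.45). Cdh1 stood at 2645 ± 247 at E13 (SD, n = 3), 13274 ± 1857 at E18 (SD, n = 4), 9053 ± 618 at Wk4 (SD, n = 3) and 2510 ± 1166 in recombined tissue (SD, n = 2). Nearest to Podxl were Adgrl4, an adhesion receptor of endothelium (0.24), Crip2 (0.25) and Smtnl2 (0.26), and nearest to Synpo were Rab5b (0.14), Mlec (0.14) and Trappc6b (0.14). The nearest member to Nphs1 was Podxl (0.76), which ranked 76 among the 11919, and Synpo ranked 4175.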

How the data were processed

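The labels' protocols describe total RNA made into biotinylated cRNA for Affymetrix arrays. The deposited values are the authors' probe set intensity on a linear scale; the software was GCOS, as the submitters' processing notes name it, without version or settings. Without the lowest and highest 2% of values the mean was 2501 on all 12 arrays, so each array had been scaled, which hides any change in the RNA content of a cell. Detection calls were not used. The number of arrays limits the precision.

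From these, log2(signal + 271) was computed, 271 being the 25th percentile of all values. After removal of 57 control probe sets, 22599 probe sets passed the filter. All 12 arrays entered 1 model in limma 3.58.1 (R 4.3.3; lmFit, eBayes with an intensity trend, 8 residual degrees of freedom), two-sided, with Benjamini-Hochberg adjustment over all kept probe sets. "Rose", "fell", "higher" and "lower" by test mean an adjusted p under 0.05; the 3-fold rule adds the design's fold. The steps were tested on simulated data.

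Of all probe sets 20826 had 1 symbol, 436 several and 9780 none. The named genes were all 10 members, the 3 nearest patterns to each of Nphs1, Synpo and Podxl, the 2 largest changes in each role list, and examples from the lists. Members and lists were chosen with earlier results of these data known, and so was the use of array sets; the fits on embryonic arrays of a single set were added after seeing the data. List genes without a single-symbol probe set were not analysed here.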

Additional observations from a re-analysis of the deposited data

How the results depend on the processing

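The count of genes called by adjusted p and 3-fold depended most on the scale and the fold. With no pseudocount it was 5 for E18 against E13 (3 as reported) and 2 for Wk4 against E18 (1 as reported). With 4 times the pseudocount it was 1 for E18 against E13, 0 for Wk4 against E18, 1 for Wk4 against E13 (4 as reported), 1 for recombined tissue against E18 (3 as reported) and 1 against Wk4 (4 as reported); a larger pseudocount draws in dim genes by construction. With a 2-fold minimum the counts were 6 for E18 against E13, 3 for Wk4 against E18 and 1 for recombined tissue against E13 (0 as reported). By the adjusted p alone they were 7, 5, 9, 5, 6 and 8 in the order E18 against E13, Wk4 against E18, Wk4 against E13, then recombined tissue against E13, E18 and Wk4. When a gene's probe sets were averaged, recombined tissue against Wk4 had 2. Against the E18 array of set 2 alone, Wk4 had 4. Leaving out each array gave 3 to 4, 1 to 2, 4 to 5, 0 to 0, 3 to 3 and 3 to 4 in the same order. Strict filtering removed Clic5, which then has no value.

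Of 1114 alternative values of single genes, 1012 kept direction and side of the threshold, 66 lost the call, 20 gained one and 16 changed sign, none of these past the threshold in the reported fit. With the mean of the probe sets, Synpo was -0.12 for E18 against E13 and Podxl 0.03 for Wk4 against E18. Ptpro for Wk4 against E18 was 0.038 with quantile normalization and 0.004 with embryonic set 2 alone. After median centring, recombined minus E13 was -0.10 for Clic5 and -0.18 for Actn4. Actn4 in that comparison was -0.072 with the replicate block, -0.24 with the set as a covariate and -0.98 with the E13 array of set 1 alone. With an array left out it ran from -0.53 to 0.56. Against E18 it was 0.28 with set 2 alone. With an array left out, Nphs1 ran from -0.21 to 0.93 against E13, Plce1 from -0.075 to 0.37 against E18 and Synpo from -0.25 to 0.07 against Wk4, all for recombined tissue. The causes were not tested.

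The replicate numbers recur in all groups. Of 15 same-numbered pairs of arrays, 1 had deviations that correlated above 0.1 (range -0.17 to 0.31), namely replicate 1 of E13 with replicate 1 of E18. Deviations from a group mean offset each other within the group, and in recombined tissue they are mirror images. These correlations therefore cannot decide whether arrays of the same number share more than the number. With the number as a replicate block the counts were 3, 1, 4, 0, 3 and 4 in the order above. Low signals have no detection limit here, which limits what can be said of Nphs1, Rhpn1 and Clic5 at E13 and in recombined tissue.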
